A study of Mus musculus with 8 samples.

Results

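The nuclear genes for the subunits of the respiratory chain and of ATP synthase were followed in livers of NCOR knockout mice and their controls. Members were picked by a rule on symbols that uses no values, although it was chosen with earlier results of these data known. It takes symbols that begin with Ndufa, Ndufb, Ndufc, Ndufs, Ndufv, Uqcr, Cox4, Cox5, Cox6, Cox7, Cox8 or Atp5, together with Sdha, Sdhb, Sdhc, Sdhd, Cyc1 and Cycs. On the array 91 of 22180 genes met that rule, 89 of them protein-coding and 2 pseudogenes. They fell into 32 subunits of complex I, 8 complex I assembly factors of the Ndufaf series, 4 subunits of complex II, 8 of complex III, cytochrome c, 19 genes of complex IV and 17 of complex V. Another 7 protein-coding genes of these families, among them Cox6c, Uqcr10, Ndufs6 and Ndufb2, were measured only by probe sets that match several genes and were left out.

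Total RNA of 8 livers was hybridised to single-colour Affymetrix Mouse Gene 2.0 arrays. The 4 NCOR KO livers came from 3-month-old floxed mice injected through a vein with adeno-associated virus that carries Cre recombinase, and the 4 WT livers from 3-month-old mice that received the same kind of virus carrying GFP. All mice ate normal chow, and livers were taken 2 weeks after the virus at 5 pm (ZT10). NCOR represses transcription at nuclear receptors in a complex with the histone deacetylase HDAC3. The labels give the controls as wild-type, but the series design speaks of floxed mice for both viruses. The promoter that drives Cre is not given in the sources used here, and an effect of Cre itself cannot be told apart from loss of NCOR. The targeted gene was not analysed here, so the labels were not checked against it. The labels describe the replicates as biological without naming the animal behind each array, and the p-values here cover only the variation among these samples.

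Intensities were taken to the log2 scale, and a difference is the NCOR KO mean minus the WT mean on that scale. Array medians ran from 41.0 to 44.1 on the linear scale. The median gene lay at a log2 intensity of 5.88, and genes below it are called dim. Hepatocyte markers were bright on all arrays, from Cebpa at 10.93 to albumin (Alb) at 13.52. By limma across all genes, 366 of 22180 (1.65%) had an adjusted p under 0.05, 181 higher in NCOR KO (0.816%) and 185 lower (0.834%). After centring arrays on their medians that split was 147 higher and 383 lower.

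The respiratory chain sits in the inner mitochondrial membrane. Complexes I and II pass electrons from NADH and succinate to ubiquinone, complex III passes them on to cytochrome c, and complex IV hands them to oxygen. Complexes I, III and IV pump protons as they do so, and ATP synthase (complex V) uses the returning protons to make ATP. Hepatocytes rely on this machinery to oxidise fatty acids and to power glucose and urea synthesis, and the transcription factors NRF1, GABPA and the estrogen-related receptors, with the PGC-1 coactivators, are known to drive many of its nuclear genes.

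None of the 91 genes passed the threshold in NCOR KO liver by limma: 0 were higher, 0 were lower and 91 did not pass, against a background of 1.65% of all genes. The lowest adjusted p among them was 0.0833. At an unadjusted p under 0.05 there were 11 members (12.1%), against 15.9% of all genes. All 4 NCOR KO values lay on one side of all 4 WT values for 6 members (6.59%), against 10.4% of all genes. Among all genes at or above the median level, 22.5% had an unadjusted p under 0.05 and 15.4% did not overlap. For the 79 members at or above that level the shares were 8.86% and 6.33%. The log2 changes ran from -0.30 to 0.23, with a median of -0.01, where the median over all genes was 0.0063. Over genes at or above the median level, where most members lie, the median was -0.0173. The members split into 40 above 0 and 51 below 0, a split that became 22 and 69 with arrays centred on their medians, where the median over all genes was -0.04, and 47 and 44 after quantile normalization. In these whole-liver samples fewer cells of a type and less RNA per cell cannot be told apart.

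A missed threshold does not show that levels were equal, so the intervals of the differences are given. The 95% interval of limma, which is not adjusted for the number of genes, stayed within a 1.2-fold difference in either direction for 66 of the 91 members (72.5%), against 49.0% of all genes and 44.1% of genes at or above the median level. It stayed within 1.5-fold for 91 of 91, against 95.5% of all genes. The median spread within a group was 0.068 (SD, log2) over members and 0.11 over all genes. A log2 change smaller than 0.1 in size was estimated for 65 members (71.4%), against 57.9% of all genes. Of the members, 12 were dim.

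**Figure D1:**
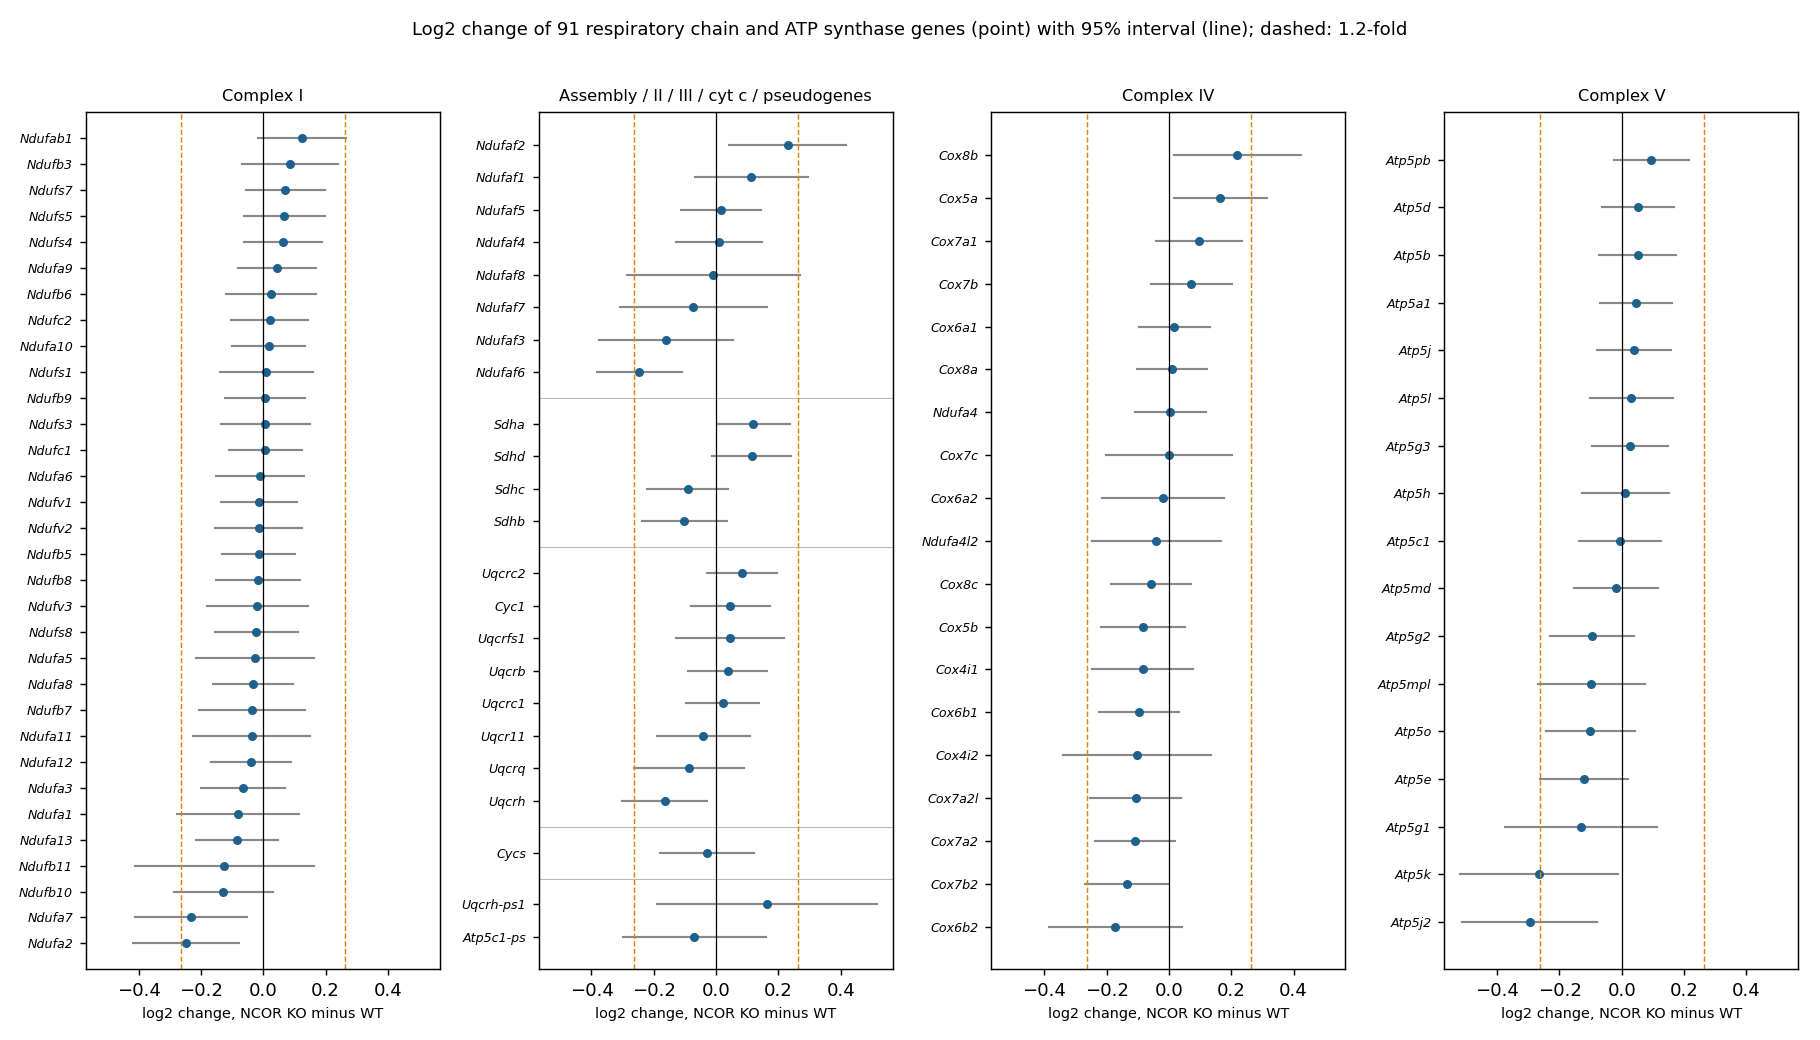
Log2 change (NCOR KO minus WT, x axis) of each of the 91 genes, with its 95% interval as a line, in 1 panel each for complexes I, IV and V and 1 for the assembly factors, complexes II and III, cytochrome c and the pseudogenes. Dashed lines mark a 1.2-fold difference; 66 of the 91 intervals lie between them, and the points run from -0.30 to 0.23.

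Complex I, the entry point for electrons from NADH, had 13 subunits above 0 and 19 below, with a median log2 change of -0.01 and a range of -0.25 to 0.12. Of its 32 subunits 2 had an unadjusted p under 0.05 (6.25%, against 15.9% of all genes). In 0 did the groups separate, against 10.4% of all genes. The largest difference was that of Ndufa2, an accessory subunit of the peripheral arm, with log2 intensities of 8.85, 8.90, 8.72 and 9.05 in NCOR KO livers, against 9.14, 9.17, 9.18 and 9.02 in WT livers. Its log2 change was -0.25 ± 0.08 (SE; limma adjusted p = 0.149, 95% interval -0.42 to -0.08). NCOR KO replicate 4 lay above WT replicate 4, so the groups overlapped.

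Ndufa7, another accessory subunit, had 8.71, 8.74, 8.58 and 8.80 in NCOR KO livers, against 8.94, 9.11, 8.94 and 8.77 in WT livers (log2 change -0.23 ± 0.08 SE, limma adjusted p = 0.199). Here too the lowest WT value, that of replicate 4, lay inside the NCOR KO range. Ndufb10, a membrane arm subunit, differed by -0.13 ± 0.07 (SE, limma adjusted p = 0.424). The catalytic core that carries the flavin and the iron-sulfur clusters lay close to 0: Ndufv1 at -0.01, Ndufv2 at -0.01, Ndufs1 at 0.01, Ndufs3 at 0.0062, Ndufs7 at 0.07 and Ndufs8 at -0.02 in log2 change. Ndufv1, the subunit that binds NADH, had 10.90, 10.91, 10.79 and 10.85 in NCOR KO livers, against 10.88, 10.91, 10.84 and 10.86 in WT livers, and its 95% interval of -0.14 to 0.11 stayed within 1.2-fold. Ndufab1, the mitochondrial acyl carrier protein that is also a complex I subunit, had the highest log2 change of the complex, 0.12 ± 0.06 (SE, limma adjusted p = 0.378).

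The Ndufaf genes encode factors that build complex I and are not part of the finished enzyme. Of these 8 genes 4 were above 0 and 4 below, and 2 had an unadjusted p under 0.05 (25%, against 15.9% of all genes). Ndufaf6, which is needed for early steps of complex I assembly, had the lowest adjusted p of all 91 members. Its log2 intensities were 7.64, 7.73, 7.81 and 7.68 in NCOR KO livers, against 7.91, 8.01, 7.90 and 8.03 in WT livers. Every NCOR KO value was below every WT value, and the log2 change was -0.25 ± 0.06 (SE; 1.19-fold lower, 95% interval -0.38 to -0.11), with a limma adjusted p of 0.0833. When dim genes were left out of the fit, which leaves 11090 genes to adjust over, the adjusted p was 0.0479.

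Ndufaf2, an assembly factor related to the subunit Ndufa12, leaned the other way. It had 5.62, 5.95, 5.81 and 6.001 in NCOR KO livers, against 5.61, 5.62, 5.69 and 5.54 in WT livers (log2 change 0.23 ± 0.08 SE, limma adjusted p = 0.220). NCOR KO replicate 1 lay among the WT values, and the gene was dim. Ndufaf3 differed by -0.16 ± 0.10 (SE, limma adjusted p = 0.461). The assembly factors had a within-group SD of 0.12 at the median, above the 0.068 of all members, and the 95% interval stayed within 1.2-fold for 2 of 8.

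Complex II, succinate dehydrogenase, is also an enzyme of the citric acid cycle and is built only from nuclear genes. Its 4 subunits did not lean one way. Sdha, the flavoprotein that oxidises succinate, had 12.08, 12.09, 12.15 and 12.08 in NCOR KO livers, against 11.98, 11.92, 11.997 and 12.01 in WT livers. The groups did not overlap, at a log2 change of 0.12 ± 0.05 (SE; 1.09-fold, 95% interval 0.0015 to 0.24, limma adjusted p = 0.308). Sdhd, a membrane anchor, had 10.998, 11.06, 11.14 and 11.12 in NCOR KO livers, against 10.92, 10.95, 10.98 and 11.01 in WT livers (log2 change 0.11 ± 0.06 SE, limma adjusted p = 0.364). NCOR KO replicate 1 lay just below the highest WT value.

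The other subunits of complex II had lower NCOR KO means. Sdhb, the iron-sulfur subunit, had 10.11, 10.09, 10.13 and 10.24 in NCOR KO livers, against 10.15, 10.25, 10.26 and 10.32 in WT livers (log2 change -0.10 ± 0.06 SE, limma adjusted p = 0.458). Sdhc, the partner of Sdhd in the membrane, differed by -0.09 ± 0.06 (SE, limma adjusted p = 0.488). For all 4 subunits the 95% interval stayed within 1.2-fold.

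In complex III, which moves electrons from ubiquinol to cytochrome c, 5 of 8 genes were above 0 and 3 below, with a median log2 change of 0.03. Uqcrh, the hinge subunit next to cytochrome c1, had 9.04, 9.17, 9.02 and 9.09 in NCOR KO livers, against 9.28, 9.31, 9.20 and 9.19 in WT livers. The groups did not overlap, at a log2 change of -0.17 ± 0.06 (SE; 1.12-fold lower, limma adjusted p = 0.224). Uqcrc2, a core subunit, also separated, in the other direction and by less: 11.93, 11.94, 11.93 and 11.93 in NCOR KO livers, against 11.84, 11.82, 11.86 and 11.86 in WT livers (log2 change 0.08 ± 0.05 SE, limma adjusted p = 0.458). The arrays of each group lay within a few hundredths of each other for that gene. Uqcrq differed by -0.09 ± 0.08 (SE, limma adjusted p = 0.630). Of the catalytic subunits, Cyc1, which is cytochrome c1, differed by 0.05 ± 0.06 (SE, limma adjusted p = 0.736) and Uqcrfs1, the Rieske iron-sulfur protein, by 0.04 ± 0.08 (SE, limma adjusted p = 0.825).

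Cycs, the somatic cytochrome c that shuttles electrons from complex III to complex IV, had 11.41, 11.45, 11.48 and 11.64 in NCOR KO livers, against 11.54, 11.58, 11.55 and 11.43 in WT livers on its brightest probe set. The ranges overlapped widely, and the log2 change was -0.03 ± 0.07 (SE, limma adjusted p = 0.873). Cycs was listed with 5 probe sets, of which a pair held identical values, and their log2 changes ran from -0.09 to 0.0085. Over the 10 members with more than 1 probe set, 23 probe sets gave log2 changes of -0.13 to 0.07 with a lowest limma adjusted p of 0.395, and 5 of the 10 genes had probe sets of both signs. Cytochrome c and several other members have processed pseudogenes, so probe sets can share signal between copies.

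Complex IV, cytochrome c oxidase, is the complex with the most tissue isoforms. Of its 19 genes, counting Ndufa4, now regarded as a complex IV subunit, and its paralog Ndufa4l2, 7 were above 0 and 12 below (median log2 change -0.04). Among isoforms that liver is known to use, Cox6a1 had 12.61, 12.63, 12.59 and 12.65 in NCOR KO livers, against 12.63, 12.59, 12.58 and 12.62 in WT livers, with a 95% interval of -0.10 to 0.13. Cox8a had 12.01, 12.04, 12.01 and 12.003 in NCOR KO livers, against 12.03, 11.98, 12.02 and 11.997 in WT livers, with an interval of -0.10 to 0.12. Ndufa4 differed by 0.0038 ± 0.05 (SE) and Cox4i1 by -0.08 ± 0.07 (SE, limma adjusted p = 0.612). The signs of Cox6a1, Cox8a and Ndufa4 turned with arrays centred on their medians.

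Cox7a2, the form of subunit VIIa found in liver, was the bright member of complex IV in which the groups separated. It had 11.02, 11.06, 11.01 and 11.06 in NCOR KO livers, against 11.19, 11.22, 11.07 and 11.10 in WT livers (log2 change -0.11 ± 0.06 SE; 1.08-fold lower, limma adjusted p = 0.390). The gap between the highest NCOR KO and the lowest WT value was small beside the WT range. Its relative Cox7a2l, which joins complexes III and IV into supercomplexes, differed by -0.11 ± 0.07 (SE, limma adjusted p = 0.469), and Cox6b1 by -0.10 ± 0.06 (SE, limma adjusted p = 0.459). Cox5a, a matrix-side subunit, had 9.79, 9.78, 9.67 and 9.91 in NCOR KO livers, against 9.71, 9.55, 9.61 and 9.60 in WT livers (log2 change 0.17 ± 0.07 SE, limma adjusted p = 0.266), so WT replicate 1 overlapped the NCOR KO range. Its partner Cox5b was at -0.08.

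**Figure D2:**
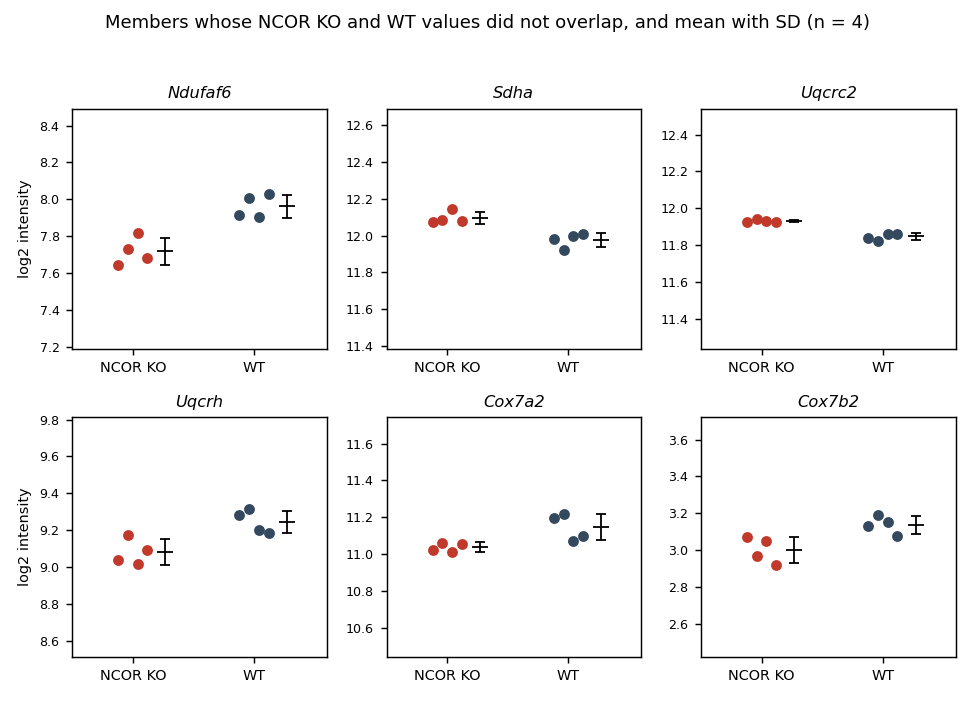
Log2 intensity (y axis, 1.3 log2 units high in each panel) in 4 NCOR KO and 4 WT livers for the 6 members whose groups did not overlap; points are replicates 1 to 4 in order and bars the mean with SD. Sdha and Uqcrc2 are higher in NCOR KO, and Ndufaf6, Uqcrh, Cox7a2 and Cox7b2 lower, by 0.08 to 0.25 in log2 change, with limma adjusted p from 0.0833 to 0.458.

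Isoforms known from muscle, lung or testis were mostly dim. Cox8b, the muscle and brown fat form of subunit VIII, had 4.84, 5.07, 4.88 and 4.69 in NCOR KO livers, against 4.77, 4.56, 4.75 and 4.52 in WT livers (log2 change 0.22 ± 0.09 SE, limma adjusted p = 0.276). The groups overlapped. Beside it, 5 of 6 skeletal muscle markers were above 0, with 0 passing the threshold and a mean level of 5.28 to 5.32 in NCOR KO livers and 5.13 to 5.30 in WT livers. Of 5 brown fat markers 4 were above 0 and 0 passed, with mean levels of 5.56 to 5.61 in NCOR KO livers and 5.39 to 5.48 in WT livers, and Ucp1, which defines brown fat, was dim at 5.15. The part of such cells in the Cox8b value was not tested. Cox7a1 and Cox6a2, the muscle forms of their subunits, differed by 0.10 ± 0.06 (SE, limma adjusted p = 0.486) and -0.02 ± 0.09 (SE, limma adjusted p = 0.939).

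Cox7b2, a testis form, lay near the floor of the table. It had 3.07, 2.97, 3.05 and 2.92 in NCOR KO livers, against 3.13, 3.19, 3.15 and 3.08 in WT livers, so the groups separated by less than 0.1 (log2 change -0.14 ± 0.06 SE, limma adjusted p = 0.301). At that intensity a change in probe signal cannot be told from a change in background. Cox4i2, the lung form of subunit IV, differed by -0.10 ± 0.11 (SE, limma adjusted p = 0.680) and Cox6b2, a testis form, by -0.17 ± 0.10 (SE, limma adjusted p = 0.422). Cox8c was at -0.06 and Ndufa4l2, a gene known to respond to hypoxia, at -0.04 in log2 change.

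ATP synthase had 8 of 17 genes above 0 and 9 below, with a median log2 change of -0.0053. In the catalytic head, Atp5b, the beta subunit that makes ATP, had 12.99, 13.07, 13.06 and 13.06 in NCOR KO livers, against 13.04, 12.98, 13.01 and 12.93 in WT livers, a log2 change of 0.05 ± 0.06 (SE, limma adjusted p = 0.698). Its 95% interval ran from -0.07 to 0.17. Atp5a1, the alpha subunit, was at 0.04, Atp5c1, the rotating gamma subunit, at -0.0053 and Atp5d, the delta subunit, at 0.05. Atp5e, the epsilon subunit, was at -0.12 ± 0.06 (SE, limma adjusted p = 0.387).

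The proton-carrying c subunit comes from several genes, and these are close paralogs. Atp5g1, the copy known to follow respiratory demand, differed by -0.13 ± 0.11 (SE, limma adjusted p = 0.599), Atp5g2 by -0.10 ± 0.06 (SE, limma adjusted p = 0.477) and Atp5g3 by 0.03 ± 0.06 (SE, limma adjusted p = 0.859), the last turning sign with arrays centred. The largest differences of the complex were in small membrane subunits. Atp5j2 (subunit f) had 5.19, 5.32, 5.19 and 5.00 in NCOR KO livers, against 5.37, 5.67, 5.28 and 5.55 in WT livers (log2 change -0.30 ± 0.10 SE; 95% interval -0.51 to -0.08, limma adjusted p = 0.176). Atp5k (subunit e), which holds ATP synthase dimers together with its partners, had 9.74, 9.69, 9.57 and 9.53 in NCOR KO livers, against 9.69, 10.17, 9.68 and 10.05 in WT livers (log2 change -0.26 ± 0.11 SE, limma adjusted p = 0.294). WT replicates 2 and 4 were high for Atp5k, while WT replicates 1 and 3 lay inside the NCOR KO range. Atp5j2 was dim, and its groups overlapped as well.

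Array by array, the members stayed close to their means. The mean over all 91 genes of the log2 intensity minus the gene's own mean was -0.04, 0.0025, -0.04 and 0.03 in NCOR KO replicates 1 to 4, against 0.01, 0.02, 0.0099 and 0.0039 in WT replicates 1 to 4. The NCOR KO arrays spread more widely (SD 0.030) than the WT arrays (SD 0.0053) and lay on both sides of them. Complex V had the largest difference of the 5 complexes, -0.05, at -0.04, 0.0046, -0.04 and -0.02 in NCOR KO replicates 1 to 4, against 0.02, 0.04, -0.0021 and 0.03 in WT replicates 1 to 4, and the groups overlapped. Among the 5 complexes and the assembly factors, the assembly factors varied most within a group, from -0.13 in NCOR KO replicate 1 to 0.10 in NCOR KO replicate 4 and from -0.09 in WT replicate 2 to 0.08 in WT replicate 4. NCOR KO replicate 1 and WT replicate 2 are also the arrays that stood at one end of the second principal component of all genes, and their Kupffer cell markers were the lowest of their groups, at a mean level of 8.02 and 7.77. The part of either in the spread of the assembly factors was not tested.

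**Figure D3:**
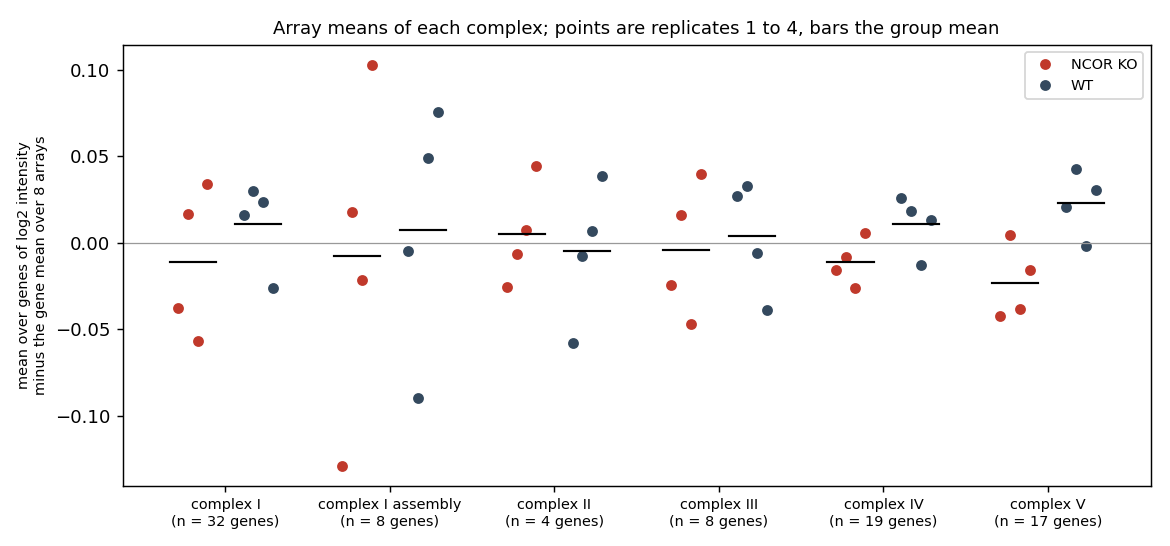
Mean over the genes of each complex of log2 intensity minus the gene's mean over 8 arrays (y axis), for NCOR KO replicates 1 to 4 and WT replicates 1 to 4 in order, with the group mean as a bar. The groups overlap in each of the 6 sets shown, and the assembly factors have the widest spread.

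Promoters of the members were searched for letters known to be bound by regulators of mitochondrial genes. RefSeq promoter windows on GRCm38.p6, from 250 bases before to 50 after a start site, were matched for 73 of the 91 members and for 16918 measured genes in all. The NRF1 core, GCGCA and GCGC with any 1 base between them on either strand, occurred in 17 of the 73 (23.3%), against 7.26% of all genes. The YY1 core AAGATGGCG occurred in 7 (9.59%) against 2.18%, the estrogen-related receptor element TCAAGGTCA in 2 (2.74%) against 0.366%, the GABPA core CCGGAAGT in 5 (6.85%) against 5.64%, and the CCAAT box, searched as ATTGG, in 31 (42.5%) against 41.6%. The TATA box, searched as TATAAA, occurred in 8 (10.96%) against 14.3%. None of these letter strings was required to be free of overlap with another. The members' windows had a median G and C content of 58.5%, against 56.5% over all genes, which itself bears on matches to letters rich in G and C. A match is a description of the sequence and not evidence of binding.

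Upstream sequences, 250 bases that end at the base before the start site and are written along the gene, are shown for the member of complexes I, II, IV and V with the lowest unadjusted p among those whose upstream part holds the NRF1 core; capitals mark the core. No complex III member met that condition.
Ndufs5, chr4:123718187-123718436, minus strand: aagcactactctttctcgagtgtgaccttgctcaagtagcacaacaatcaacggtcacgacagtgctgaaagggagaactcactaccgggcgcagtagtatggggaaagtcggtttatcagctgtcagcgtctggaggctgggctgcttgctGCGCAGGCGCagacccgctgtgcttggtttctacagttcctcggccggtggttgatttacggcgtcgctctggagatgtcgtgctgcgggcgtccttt
Sdha, chr13:74350241-74350490, minus strand: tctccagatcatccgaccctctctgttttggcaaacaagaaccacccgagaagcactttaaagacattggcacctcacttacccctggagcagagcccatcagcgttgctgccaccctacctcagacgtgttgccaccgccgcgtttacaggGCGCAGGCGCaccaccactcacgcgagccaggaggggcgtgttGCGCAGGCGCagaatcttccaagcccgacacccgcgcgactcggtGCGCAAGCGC
Cox6a1, chr5:115348959-115349208, minus strand: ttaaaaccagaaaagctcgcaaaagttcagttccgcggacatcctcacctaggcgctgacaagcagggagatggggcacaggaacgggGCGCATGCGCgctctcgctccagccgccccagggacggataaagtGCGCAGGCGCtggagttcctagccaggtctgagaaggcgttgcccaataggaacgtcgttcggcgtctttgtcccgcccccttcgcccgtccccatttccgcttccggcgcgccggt
Atp5k, chr5:108434400-108434649, minus strand: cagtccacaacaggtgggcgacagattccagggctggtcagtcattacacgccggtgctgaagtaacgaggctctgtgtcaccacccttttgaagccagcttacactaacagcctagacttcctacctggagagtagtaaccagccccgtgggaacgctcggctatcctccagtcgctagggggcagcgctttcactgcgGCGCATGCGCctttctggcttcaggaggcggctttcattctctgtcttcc

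Sdha holds 3 copies of the core, Cox6a1 holds 2, and Ndufs5 and Atp5k hold 1 each. The log2 change was 0.12 for Sdha, 0.02 for Cox6a1, 0.07 for Ndufs5 and -0.26 for Atp5k. Over the 17 members with the core it ran from -0.26 to 0.12 with a median of 0.0085, and 9 were above 0 and 8 below. Over the 56 members without it the median was -0.01.

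Genes that work beside the chain were read from the same fit, as 9 lists with 199 measured genes. Of these 4 rose in NCOR KO liver, 4 fell and 191 did not pass, so that 4.02% were called against 1.65% of all genes. Most of the listed genes were not dim, and among the 11090 genes at or above the median level 155 rose and 174 fell. The lists were chosen with earlier results of these data known, so their share is a description only. Subunits encoded by mitochondrial DNA are transcribed inside the organelle and join the nuclear products in complexes I, III, IV and V. Of these, COX2, ATP6 and ATP8 were not measured here, so those of complex V were not covered. Of 10 measured, 9 did not pass and lay between -0.05 (COX3) and 0.0014 (ND5) in log2 change, with levels of 12.96 to 13.45 near the top of the table. ND6, the protein gene read from the opposite strand of the mitochondrial genome, was the exception. It had 7.50, 7.48, 7.37 and 7.49 in NCOR KO livers, against 7.86, 7.86, 7.63 and 7.75 in WT livers, and fell by 0.32 ± 0.07 (log2, SE; 1.25-fold lower, limma adjusted p = 0.0488). The call was lost in 9 of 15 alternative fits: with quantile normalization (adjusted p = 0.0963), with a replicate block (0.0808), and without any 1 of the 8 arrays other than WT replicate 3 (0.0828 to 0.126).

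Electrons also reach ubiquinone from other dehydrogenases, and among 11 of these 1 rose, 1 fell and 9 did not pass. Gpd2, the mitochondrial glycerol phosphate dehydrogenase, had 9.20, 9.24, 8.99 and 9.03 in NCOR KO livers, against 8.25, 8.47, 8.53 and 8.68 in WT livers, and rose 1.55-fold (log2 change 0.63 ± 0.10 SE, limma adjusted p = 0.0121). Its call was lost in 2 of 15 alternative fits, without NCOR KO replicate 2 (adjusted p = 0.05005) and with a replicate block (0.0556). Prodh2, which oxidises hydroxyproline, had 9.33, 9.33, 9.33 and 9.46 in NCOR KO livers, against 9.92, 9.95, 10.09 and 10.10 in WT livers, and was 1.57-fold lower (log2 change -0.65 ± 0.07 SE, limma adjusted p = 0.00153). It passed in each of 15 alternative fits. Etfdh, which feeds electrons from fatty acid oxidation to ubiquinone, did not pass at 0.21 ± 0.06 (SE, limma adjusted p = 0.101), although all 4 of its NCOR KO values lay above all 4 WT values.

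In the citric acid cycle 1 of 14 genes rose, 0 fell and 13 did not pass. Cs, the citrate synthase that opens the cycle, had 10.86, 10.67, 10.67 and 10.67 in NCOR KO livers, against 10.32, 10.34, 10.35 and 10.30 in WT livers, and rose 1.31-fold (log2 change 0.39 ± 0.06 SE, limma adjusted p = 0.0144). The call was lost in 1 of 15 alternative fits, that with a replicate block (adjusted p = 0.0567). NCOR KO replicate 1 stood above the other NCOR KO livers. Idh3a, a subunit of isocitrate dehydrogenase, was at 0.25 ± 0.08 (SE, limma adjusted p = 0.178). Fh1 lay the other way at -0.23 ± 0.06 (SE, limma adjusted p = 0.108), with every NCOR KO value below every WT value. Of the 14 genes of the cycle 10 were above 0 and 4 below. In coenzyme Q synthesis 1 of 12 genes rose and 11 did not pass. Coq8a, a kinase-like protein of that pathway, had 10.54, 10.50, 10.65 and 10.56 in NCOR KO livers, against 10.004, 10.18, 10.23 and 10.25 in WT livers (log2 change 0.40 ± 0.07 SE; 1.32-fold, limma adjusted p = 0.0250). Its call was lost in 6 of 15 alternative fits, among them those without WT replicate 1 (adjusted p = 0.0509) and without NCOR KO replicates 1 to 4 in turn, where the adjusted p ran from 0.0544 to 0.0687, and that with a replicate block (0.0568). Coq10b was at -0.14 (limma adjusted p = 0.339).

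Of 23 regulators of mitochondrial genes 1 rose in NCOR KO liver, 1 fell and 21 did not pass. Their median log2 change was -0.10, and 17 of 23 were below 0 (73.9%). That share was 48% over all genes and 55.3% over genes at or above the median level. Nrip1, which encodes the nuclear receptor corepressor RIP140 and is known in muscle and fat to hold back oxidative genes, had 8.51, 8.35, 8.39 and 8.24 in NCOR KO livers, against 7.84, 7.89, 8.03 and 7.86 in WT livers, and rose 1.38-fold (log2 change 0.47 ± 0.07 SE, limma adjusted p = 0.0142). Nrip1 did not pass with a replicate block (adjusted p = 0.0504). Polg2, the accessory subunit of the mitochondrial DNA polymerase, had 6.59, 6.93, 6.95 and 6.88 in NCOR KO livers, against 7.44, 7.13, 7.29 and 7.40 in WT livers, and was 1.39-fold lower (log2 change -0.48 ± 0.10 SE, limma adjusted p = 0.0404). The Polg2 call was lost in 8 of 15 alternative fits, with a replicate block (adjusted p = 0.114) and without any 1 of the 8 arrays other than WT replicate 2 (0.0694 to 0.108).

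The coactivator genes did not pass. Ppargc1a, which encodes PGC-1α, had 9.12, 8.76, 8.76 and 8.52 in NCOR KO livers, against 8.70, 9.20, 8.73 and 8.94 in WT livers (log2 change -0.10 ± 0.14 SE, limma adjusted p = 0.758). Its interval of -0.41 to 0.20 is wide, since the arrays of both groups were scattered. Ppargc1b was at 0.09 ± 0.12 (SE, limma adjusted p = 0.758), and Esrra, which encodes the estrogen-related receptor ERRα, at 0.03 ± 0.06 (SE, limma adjusted p = 0.853). Nrf1 was at -0.06 ± 0.08 (SE, limma adjusted p = 0.753), and Tfam, the factor that packs and transcribes mitochondrial DNA, at -0.10 ± 0.07 (SE, limma adjusted p = 0.542). Gabpa was at -0.19 ± 0.07 (SE, limma adjusted p = 0.217), with every NCOR KO value below every WT value. The groups separated for 5 of the 23 regulators (21.7%), 1 higher and 4 lower. That share was 10.4% over all genes and 15.4% over genes at or above the median level.

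Of 71 genes of the mitochondrial ribosome, which translates the subunits encoded by mitochondrial DNA, 0 rose, 1 fell and 70 did not pass. Their median log2 change was -0.05, and 51 were below 0 (71.8%). That share was 48% over all genes and 55.3% over genes at or above the median level. Mrpl27 had 5.71, 5.68, 5.81 and 5.67 in NCOR KO livers, against 6.13, 6.03, 6.20 and 5.90 in WT livers (log2 change -0.35 ± 0.07 SE; 1.27-fold lower, limma adjusted p = 0.0465). That call was lost in 9 of 15 alternative fits: with trend and robust variance (adjusted p = 0.0550), with a replicate block (0.0712), and without any 1 of the 8 arrays other than WT replicate 4 (adjusted p 0.0708 to 0.136). Mrpl55 was at -0.29 ± 0.08 (SE, limma adjusted p = 0.126). Other assembly factors of the complexes had 0 of 44 past the threshold, by limma, with 29 below 0 (median -0.07). At an unadjusted p under 0.05 there were 9 (20.5%), against 15.9% of all genes and 22.5% of those that were not dim. The furthest from 0 were Lyrm7, a complex III factor, at -0.33 ± 0.21 and Tmem126b, a complex I factor, at -0.28 ± 0.10 (SE; limma adjusted p = 0.471 and 0.227).

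Among genes of uncoupling and ATP export 0 of 11 passed, with 0 at an unadjusted p under 0.05, against 15.9% of all genes. Slc25a4, an ADP/ATP carrier, was at 0.18 ± 0.09 (SE, limma adjusted p = 0.374). Ckmt1, a mitochondrial creatine kinase, was dim and at 0.12 (limma adjusted p = 0.566). Atpif1, the inhibitor of ATP synthase, was at -0.16 ± 0.10 (SE, limma adjusted p = 0.469), and Higd2a, a complex IV factor, at -0.10 (limma adjusted p = 0.491), so that 0 of 3 genes of that list passed.

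**Figure D4:**
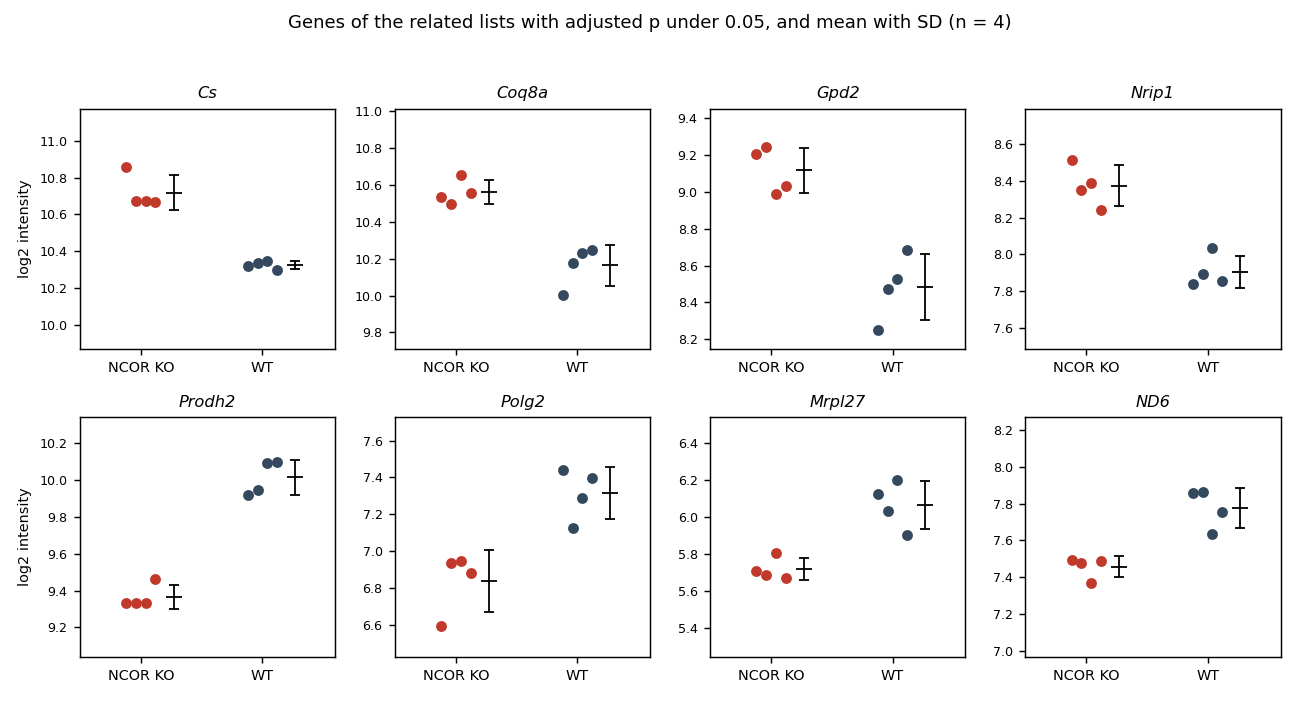
Log2 intensity (y axis, 1.3 log2 units high in each panel) in 4 NCOR KO and 4 WT livers for the 8 genes of the related lists with a limma adjusted p under 0.05; points are replicates 1 to 4 in order and bars the mean with SD. Cs, Coq8a, Gpd2 and Nrip1 are higher in NCOR KO and Prodh2, Polg2, Mrpl27 and ND6 lower, with no overlap between groups.

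Markers of other liver cells were read alongside. All 6 endothelial markers were above 0 with a median log2 change of 0.25, 0 passed, and their mean level was 9.48 to 9.68 in NCOR KO livers and 9.26 to 9.49 in WT livers. Kupffer cell markers had 5 of 6 above 0 and 0 past the threshold, with mean levels of 8.02 to 8.73 in NCOR KO livers and 7.77 to 8.63 in WT livers. Of 5 T and B cell markers, all dim, 3 were above 0 and 2 below. Cd79a (0.41) and Cd3e (0.47) rose, while Cd3g was at -0.04 and Cd2 at -0.08. Mean levels of these markers were 5.25 to 5.41 in NCOR KO livers and 5.11 to 5.16 in WT livers. Of 4 cholangiocyte markers Epcam rose (0.41), with mean levels of 6.27 to 6.44 in NCOR KO livers and 6.08 to 6.14 in WT livers. Of 6 stellate cell markers 0 passed, at 8.20 to 8.37 in NCOR KO livers and 8.24 to 8.37 in WT livers. Of 8 hepatocyte markers 5 were above 0 and 3 below, with a median log2 change of 0.0083. Of them 1 passed the threshold, Cebpa, which was lower (-0.35). Mean levels of the 8 markers were 12.42 to 12.49 in NCOR KO livers and 12.49 to 12.52 in WT livers. Slc4a1, the 1 erythroid marker measured, was dim at a log2 change of -0.03. The part of these cells in the values of the respiratory chain genes was not tested.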

How the data were processed

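The authors deposited linear probe-set intensities. RMA and Partek appear in the submitters' processing notes, with no role or version. The genome build and any filter are not given in the sources used here. The deposited table held 41345 probe sets on 8 arrays, with intensities from 5.42 to 13268. The deposited values were taken to log2 and no further normalization was applied. Of these probe sets 23521 carried a single gene in the platform annotation, 1814 carried several and 16010 none. The last 2 kinds were left out. Of the single-gene probe sets 23328 matched a RefSeq gene identifier on GRCm38.p6. The probe set with the highest mean over 8 arrays was kept per gene, giving 22180 genes. Levels of different probe sets were compared only to pick the probe set of a gene and to place genes as dim, bright or near an end of the table. No finer comparison of levels between genes was made. The number of arrays, 4 per group, limits precision.

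NCOR KO and WT, as the sample titles give them, were compared by limma (version 3.58.1, R 4.3.3) with a design of intercept and group, using lmFit and eBayes. Adjusted p-values are Benjamini-Hochberg values over all 22180 genes at a threshold of 0.05. Intervals are limma's 95% intervals. The fit was tested on simulated data, with independent normal noise at each gene's own spread and changes planted in genes drawn from all genes. It called 10 of 50 planted 1.2-fold changes, 41 of 50 at 1.5-fold and 50 of 50 at 2-fold, with 7 false calls. Changes near 1.2-fold were thus mostly missed in the simulation. The members, the 9 related lists and the markers were chosen with earlier results of these data known.

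Members were named if they passed the threshold, if their groups did not overlap, if they were among the 3 largest absolute changes of their complex, or if they belonged to a fixed set of isoforms, carriers and complex II subunits. From each related list came every gene past the threshold and the 2 largest changes, and 5 regulators and Gpd2 were always named; Ucp2 was not analysed here. Core and catalytic subunits, Ndufab1, Cox5b, Etfdh, Gabpa and Fh1 were named after their values were seen. Coq8a, Coq8b and Sqor replaced older symbols in the lists. Alternatives were quantile normalization, centring on array medians, trend and robust variance, array weights, leaving out dim genes, averaging the probe sets of each gene, a replicate block, thresholds of 0.01 and 0.1, and leaving out each array. Same-numbered arrays of both groups did not deviate together. Figures used matplotlib 3.10.9 on Python 3.11.15.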

Additional observations from a re-analysis of the deposited data

Results flagged for a closer look

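In a group of 4 arrays, a value was singled out when its gap to the nearest other array, as a share of the group's range, exceeded Dixon's 95% critical value. That was found in 7 of 132 groups tested (5.30%), where chance gives about 1 in 20. Among members, Cox6b2 in NCOR KO livers had replicate 2 low at 4.81 (gap 0.973 of the range), and Sdha in NCOR KO livers had replicate 3 high at 12.15 (0.849). Among related genes, Cs had NCOR KO replicate 1 high at 10.86 (0.985), and Prodh2 had NCOR KO replicate 4 high at 9.46 (0.975). ND6 had NCOR KO replicate 3 low at 7.37 (0.870). COX3 had NCOR KO replicate 3 low at 12.94 (0.868) and WT replicate 2 high at 13.09 (0.843).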

How the results depend on the processing

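The count of members past the threshold was 0 in the reported fit and in each fit that left out 1 array (0 to 0), and 1, Ndufaf6, with dim genes left out and at a threshold of 0.1. The median log2 change over members was -0.01, between -0.02 and 7e-05 without single arrays and -0.0575 with arrays centred on their medians. For all genes, 366 became 551 with dim genes left out, 88 and 807 at thresholds of 0.01 and 0.1, and 120 to 297 without single arrays. Leaving out NCOR KO replicate 1, 2 or 3 gave 175, 120 and 193, and leaving out WT replicate 1, 3 or 4 gave 176, 214 and 167. In the related lists, 8 genes passed in the reported fit and 3 to 6 without single arrays, at 4, 3, 4 and 4 without NCOR KO replicates 1 to 4 and 4 without WT replicate 1. Same-numbered arrays correlated between -0.09 and 0.02 in their deviations, so the numbers were not taken as pairs. With the replicate block the counts were 155 for all genes and 1 for the related lists, and 0 members passed. Over 59 named genes and 875 alternative values, 826 kept direction and side of the threshold and 36 lost the call. The 12 sign changes were all in genes with a log2 change under 0.05 in size: with arrays centred, Atp5g3 (-0.0176), Cox6a1 (-0.0261), Cox8a (-0.0336), Ndufa4 (-0.0397) and Esrra (-0.0164), and, without single arrays, Cox6a2 (-0.0947 to 0.0306), Cycs (-0.0783 to 7e-05), Ndufa4 (-0.0080 to 0.0139) and Ndufa4l2 (-0.11 to 0.0382). The cause was not tested. The number of arrays, 4 per group, and the low signal of 12 dim members limit what could be detected.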
